A study of Mus musculus with 10 samples.

Results

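Run-off of ribosomes after harringtonine was followed on 8532 of 14534 listed coding transcripts, 1 transcript per gene, in CGR8, a line of mouse embryonic stem cells from strain 129. The 8532 were those with a mean of at least 100 normalised footprints on the ORF in the control libraries, a choice that does not use the harringtonine libraries. A footprint is an RNA fragment that a ribosome protected from RNAse, counted by the position of its P-site, and normalised means scaled to equal reads of a spike-in RNA in all ribosome profiling libraries. The cells were grown without feeders on gelatin with leukemia inhibitory factor. Ribosomes were profiled in cells without inhibitor and in cells given harringtonine (2 µg/ml, 10 min), DMDA-PatA (1 µM, 10 min) or puromycin (0.2 mg/ml, 20 min). Each condition has 2 libraries, described as biological replicates. All 4 conditions, the control included, received the same amount of the solvent DMSO, and cycloheximide was added only after the cells had been chilled. All values come from a single cell line, 1 dose and 1 time. In such bulk samples fewer cells that translate an mRNA and fewer ribosomes per cell cannot be told apart.

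A ribosome joins an mRNA near its 5' end, scans to a start codon and then moves along the ORF to the stop codon. Harringtonine, a plant alkaloid, binds ribosomes that have just assembled at a start codon and holds them there, while ribosomes that are already elongating carry on and leave the mRNA at the stop codon. Footprints in the body of an ORF are therefore known to drain away, a process called run-off, while start codons keep or gain them. The study describes the drug as only partly selective for initiation sites. In 5' UTRs it found a lower relative density of footprints on AUG and CUG codons with harringtonine. An upstream ORF (uORF) is a short ORF that begins in the 5' UTR.

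The sequences below show start sites of transcripts whose 5' UTR footprints rose or fell, or that hold a known regulatory uORF. They describe the layout of these transcripts, since the files give sums per region and place no footprint at a site. Each runs 5' to 3' with the AUG codon in capitals as ATG, and the letters and positions come from GENCODE M21 on GRCm38.
Rack1 coding start: tcaactgcagccATGaccgagcagatg
Cct4 coding start: accaaggtcgccATGccggagaacgta
Ddx1 coding start: gagtgcgggaagATGgcggccttctcc
Snx19 first upstream AUG: acaggctagttgATGggccctgtcgac
Snx19 coding start: gtcctttcaaccATGaaggcacaaaca
Tnks1bp1 first upstream AUG: ctgtttcagagcATGgcggctctacca
Tnks1bp1 coding start: acgaccctgcccATGacagaggctcag
Bckdhb first upstream AUG: tgagaactggggATGgcggcggtggct
Bckdhb coding start: caaactcagaagATGaacctcttccag
Atf4 first upstream AUG: cacttttctctcATGgggcctttagga
Atf4 coding start: aagccccacaacATGaccgagatgagc
The coding starts lie at chr11:48800452-48800478 (plus strand) for Rack1, chr11:22990742-22990768 (plus strand) for Cct4 and chr12:13249105-13249131 (minus strand) for Ddx1, and these 5' UTRs hold no upstream AUG. The first upstream AUG of Snx19 lies at chr9:30427359-30427385 (plus strand), 197 nt before its coding start at chr9:30427556-30427582 (plus strand), and opens a uORF of 39 codons that ends in the 5' UTR. That of Tnks1bp1 lies at chr2:85058160-85058186 (plus strand), 1145 nt before its coding start at chr2:85059305-85059331 (plus strand), and opens a uORF of 52 codons. That of Bckdhb, at chr9:83925158-83925184 (plus strand), is in frame with the listed coding start at chr9:83952526-83952552 (plus strand) and meets no stop before it. The first upstream AUG of Atf4 lies at chr15:80255291-80255317 (plus strand), 475 nt before its coding start at chr15:80256287-80256313 (plus strand), and opens a uORF of 36 codons. This uORF is the first of the listed transcript and was not matched to the regulatory uORFs known for Atf4. Of the 8131 coding starts with a sequence, 47.3% have both a purine at the third base before the AUG and a G right after it, and 5.93% have neither.

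The control libraries held 9559519 and 11161453 reads on all coding transcripts and the harringtonine libraries 2802597 and 2535444, so low harringtonine values rest on few reads. Of the 10 embryonic stem cell markers, all had at least 100 control footprints, with summed levels of 45629 and 42772. The fibroblast or feeder markers Col1a1, Col1a2, Postn and Thy1 also passed 100 (4 of 5, summed level 22643 and 17005, with Dcn at 7.25), as did 2 of 2 mesoderm, 1 of 3 neural and 2 of 2 trophoblast markers, while none of the 3 listed endoderm markers did. Their part in the results was not tested. All changes below are relative to the spike-in. TMM factors, which centre the ORF reads of coding transcripts on no change, moved the median log2 change of all ORFs tested from -3.0 to -0.10, a shift of 2.90, and that of all 5' UTRs from 0.82 to 3.72. A direction given for a gene or family is therefore a direction against the spike-in. The spike-in factors are themselves in doubt. In a list of whole transcripts that the study published, the harringtonine and DMDA-PatA values follow each other's factors, while in its list of ORFs they follow the deposited ones, and which is right was not settled. With these factors swapped the median ORF change moved by -0.27, and all values below use the factors of the deposited files. Reads with several matches on the genome had been left out by the authors, so values of near-identical genes, among them ribosomal proteins, histones and tubulins, are uncertain.

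Summed over the 8532 transcripts, harringtonine removed most ORF footprints and raised 5' UTR footprints. The ORFs held 10541511 and 9451653 normalised footprints in the control libraries and 1919089 and 1137121 with harringtonine. The 5' UTRs held 406459 and 390946 in the control and 751193 and 532173 with harringtonine. On the 3' UTRs the sums were 79508 and 59761 against 54232 and 29317. Both harringtonine libraries were below both controls on the ORF and the 3' UTR and above both on the 5' UTR. In the same-numbered pairs 18.2% and 12% of the ORF footprints were left, and the 5' UTR sum was 1.85 and 1.36 times the control. With swapped factors the ORF shares left were 11.3% and 13.95% and the 5' UTR sums 1.15 and 1.58 times the control. The 5' UTR gain, on the deposited factors, came to 4.00% and 1.70% of the ORF loss. With 2 libraries against 2, the smallest two-sided p of an exact permutation test is 0.333, so these sums carry no test.

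**Figure D1:**
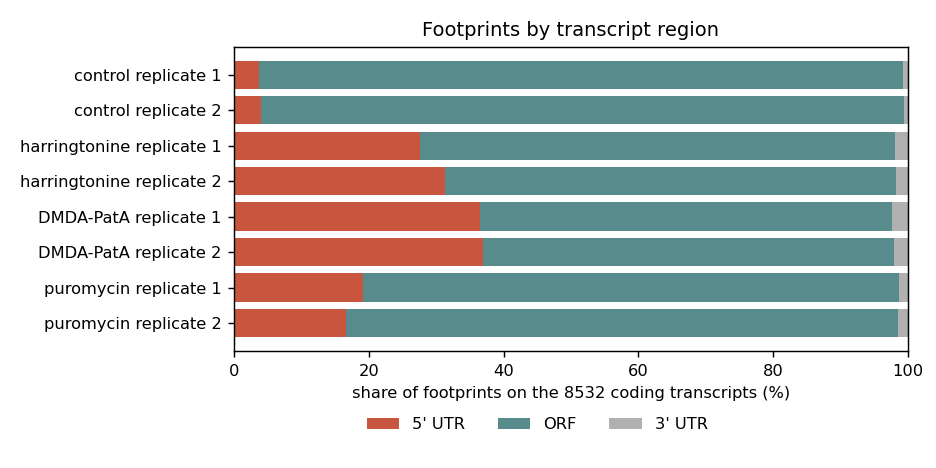
Share of normalised footprints (%, x axis) on the 5' UTR, ORF and 3' UTR of the 8532 coding transcripts in each of the 8 ribosome profiling libraries (y axis). The 5' UTR share was 3.69% and 3.95% in the control libraries and 27.6% and 31.3% with harringtonine, between the puromycin libraries (19.1% and 16.6%) and the DMDA-PatA libraries (36.5% and 36.9%).

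Shares within a library do not depend on the scaling. The ORF share fell from 95.6% and 95.4% in the control to 70.4% and 66.9% with harringtonine, and the 3' UTR share was 0.721% and 0.604% against 1.99% and 1.73%. The replicates differed in level. The median ORF value of replicate 2 was 0.895 times that of replicate 1 in the control and 0.573 times with harringtonine, and for the 5' UTR these ratios were 0.948 and 0.692. With swapped factors the harringtonine ratios were 1.07 for the ORF and 1.30 for the 5' UTR, so which harringtonine library is the higher depends on the factors.

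At the level of single transcripts, ORF footprints fell on 8205 of the 8532 members (96.2%, edgeR quasi-likelihood test, adjusted p under 0.05), rose on 19 and passed the test in neither direction on 308. Over all 11157 ORFs tested, members included, 94.2% fell and 0.305% rose. TMM factors gave 2235 members raised and 3277 lowered, and swapped factors 23 raised and 8408 lowered. The median member kept 11.5% of its control footprints, with 13.7% and 8.87% in the same-numbered pairs, and the quartiles were 6.77% and 20.0%. In 8350 members (97.9%) both harringtonine values lay under both control values. Fewer than 5% of the footprints were left on 1121 members and at least 50% on 403.

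The heat shock protein Hsp90ab1, a cytosolic chaperone, had the most control ORF footprints among the chaperones, 71194 and 63606, and 2171 and 1429 with harringtonine. The 2 conditions were far apart, with 2.67% left (log2 change -5.23 ± 0.57 SE, adjusted p = 6.16e-19). Eef1a1, the elongation factor that brings aminoacyl-tRNA to the ribosome, went from 6959 and 7069.7 to 91.3 and 60.9 (log2 change -6.53 ± 0.57 SE, adjusted p = 2.28e-27). The ornithine decarboxylase Odc1, which starts polyamine synthesis, had 272 and 302 against 4.06 and 4.20 (log2 change -6.08 ± 0.59 SE, adjusted p = 5.73e-23). Each of these ORFs lost over 90% of its footprints in both pairs, and all 3 also fell with TMM factors.

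The ORFs with the largest decreases among those with at least 10 harringtonine reads were Hnrnpk, Rpl23, Pcna-ps2, Tecr and Rpl14. Hnrnpk, which binds RNA and takes part in splicing, had 1082 and 920.1 control footprints and 10.1 and 3.50 with harringtonine (log2 change -7.26 ± 0.60 SE, adjusted p = 2.88e-30). For Rpl23, a protein of the large ribosomal subunit, the values were 1925 and 1201 and 14.2 and 9.10, and for Tecr, an enzyme of fatty acid elongation, 3328 and 3363 and 34.5 and 30.1. All of them kept at most about 1% (0.682% to 1.02%). Pcna-ps2 is annotated as a pseudogene copy of the replication clamp gene Pcna, and reads of the pair may be divided between them. No ORF read at all was left on 2 members, chosen here after their values were seen. The histone deacetylase Hdac1 had 105 and 112 in the control, and Cbx3, which binds methylated histones in heterochromatin, 113 and 92.5. Against a floor of 3 reads in each harringtonine library these were at least 42.3-fold and at least 40.0-fold lower.

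The share of control ORF footprints left was the lower the longer the ORF, up to about 10 kb. Ribosomes on the start codon count in the ORF, so this share is not a measure of run-off alone. How much of it lies at the start was not tested here, where only sums per region are used. The study itself reports that harringtonine raised the footprint density on the start codon in a part of the coding mRNAs. It also describes ribosomes stalled at the start of many histone mRNAs and of Jun. The median share of control footprints left was 47.5% on the 177 ORFs of up to 300 nt, 28.1% on the 888 of 301 to 600 nt, 16.4% on the 1501 of 601 to 1000 nt and 11.7% on the 3190 of 1001 to 2000 nt. It then came to 8.15% on the 1411 of 2001 to 3000 nt, 7.29% on the 650 of 3001 to 4000 nt, 6.44% on the 449 of 4001 to 6000 nt, 6.38% on the 154 of 6001 to 8000 nt and 5.78% on the 65 of 8001 to 10000 nt. Beyond that it was 7.33% on 14 ORFs of 10001 to 12000 nt and 11.5% on 33 longer ones. In the longest class the same-numbered pairs gave 12.4% and 8.43%, both above the 6.72% and 4.10% of the 8001 to 10000 nt class. These medians are a description without a test, and the longest classes hold few transcripts.

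**Figure D2:**
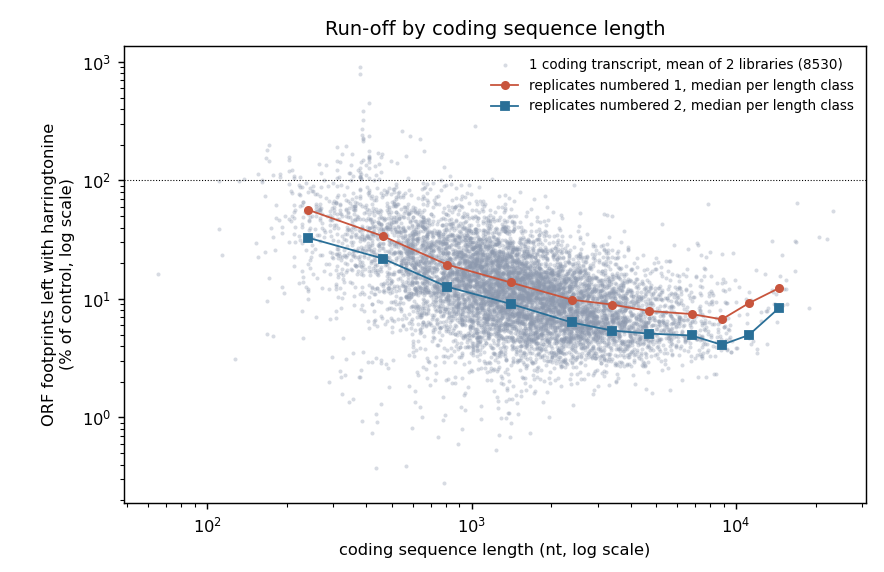
Share of control ORF footprints left with harringtonine (%, log y axis) against coding sequence length (nt, log x axis). Grey points are the 8530 coding transcripts with a harringtonine ORF read, coloured lines the medians per length class of the pair of replicates numbered 1 (circles) and of those numbered 2 (squares). Both lines fall from 56.7% and 32.9% at up to 300 nt to 6.72% and 4.10% at 8001 to 10000 nt and end higher, and the highest points belong to short ORFs. TMM factors would lift all points by a common factor.

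Among the ORFs over 12000 nt the shares left spread widely. Huwe1, a ubiquitin ligase with an ORF of 13134 nt, went from 12652 and 10607 to 649 and 318 (log2 change -4.59 ± 0.52 SE, adjusted p = 2.58e-17). Dync1h1, the motor subunit of cytoplasmic dynein (13932 nt), went from 9741 and 6944 to 981 and 542. They kept 4.16% and 9.13%. The remaining giants here were chosen after their values were seen. Mdn1, an AAA ATPase of ribosome assembly, kept 17.3%, the spectraplakin Macf1 31.9%, the cytolinker Plec 30.9% and the histone methyltransferase Kmt2d 31.1%. Dst, a further cytolinker and at 23151 nt the longest ORF, had 2196 and 1009.8 control footprints and 1260.1 and 496 with harringtonine (log2 change -0.87 ± 0.44 SE, adjusted p = 0.0501). Ahnak, a very large scaffold protein, had 3412 and 1514 against 2202 and 991 (log2 change -0.63 ± 0.44 SE, adjusted p = 0.163). Neither of these last passed the test, and in both the value of harringtonine replicate 1 lay inside the range of the controls. Without harringtonine replicate 1 both passed it (log2 change -1.69 for Dst and -1.31 for Ahnak), as Dst did without control replicate 2 (-1.32). Macf1 and Plec missed it without control replicate 1 (-1.03 and -1.21). With TMM factors the log2 change of Mdn1, Macf1, Plec, Kmt2d, Dst and Ahnak was above 0.

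Of the 308 members that passed the test in neither direction, 218 had an ORF of 600 nt or less, against 1065 such members in all. Tmsb4x encodes thymosin beta, a small protein that binds actin monomers, in 132 nt. It had 24447 and 22265 control footprints and 30278 and 16310.4 with harringtonine (log2 change -0.00 ± 0.47 SE, adjusted p = 0.994). The groups overlapped. The pluripotency marker Dppa5a (354 nt) had 12298 and 11931 against 8801 and 5913, both lower than the controls but short of the threshold (log2 change -0.72 ± 0.46 SE, adjusted p = 0.125). Tpt1, a small and abundant mRNA with a 5' terminal oligopyrimidine (TOP) tract, had 479 and 402 against 371 and 241 (log2 change -0.53 ± 0.42 SE, adjusted p = 0.218). Without harringtonine replicate 1, Dppa5a and Tpt1 passed downwards (log2 change -1.03 and -0.87). TMM factors turned all 3 to a positive log2 change.

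The 19 members with raised ORF footprints were 12 histones and 7 other genes, and 17 of them had an ORF of 600 nt or less. The count depended on single libraries. It was 11 without control replicate 1, 6 without control replicate 2, 11 without harringtonine replicate 1 and 45 without harringtonine replicate 2. Hist1h2bn, a core histone of the H2B class, had 178 and 182 control footprints and 1795 and 1493 with harringtonine (log2 change 3.19 ± 0.47 SE, adjusted p = 4.22e-11). Hist1h2br, of the same class, had 195 and 152 against 1575 and 1186. The H3 gene Hist2h3b had 864 and 804 against 3699 and 3782 (log2 change 2.16 ± 0.46 SE, adjusted p = 3.97e-06). In all 3 both harringtonine values were well above both controls. The H2A genes Hist1h2ab (3698 and 818 against 9987 and 7250.2) and Hist1h2ae (714 and 342 against 1934 and 1457) also rose, with control replicates that were themselves far apart. Without control replicate 2 both fell short of the threshold (log2 change 1.22 and 1.25).

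Of the others, Eif2s3x encodes the gamma subunit of eIF2, which carries initiator tRNA to the ribosome. Its values were 196 and 517 in the control and 978 and 1082 with harringtonine (log2 change 1.53 ± 0.44 SE, adjusted p = 6.37e-04). Fth1, the ferritin heavy chain that stores iron and was picked after its values were seen, had 532 and 441 against 1340.3 and 1202 (log2 change 1.39 ± 0.44 SE, adjusted p = 0.00184). The selenoprotein gene Selenot had 488 and 107 against 948 and 451. In Selenot the groups overlapped, since 1 control value lay above the lower harringtonine value, whereas in Eif2s3x and Fth1 they did not. The threshold was missed for Eif2s3x without control replicate 1 (log2 change 1.00), for Fth1 without control replicate 2 (1.26) and for Selenot without control replicate 2 (0.52), without harringtonine replicate 1 (0.61) or with DESeq2 (1.23).

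Over the whole family (56 members of 67 listed) the median share left was 105%, with 107% and 86.8% in the same-numbered pairs, against 28.1% for ORFs of 301 to 600 nt. On 12 of them the ORF footprints rose and on 20 they fell (48 raised and 5 lowered with TMM). By class, the median share left was 220% for 12 H2A genes, 153% for 8 H3, 106% for 14 H2B, 81.0% for 10 H4 and 79.7% for 6 H1 genes. The test passed upwards for 7 H2A, 2 H2B and 1 gene each of H1, H3 and H4, and downwards for 4 H2A, 4 H2B, 4 H4, 2 H1 and 1 H3 gene. The other 6 family members, H2afy, H3f3b, H1f0, H2afv, H1fx and H2afx, kept a median of 8.78%, and 5 of them fell. Histone genes thus moved in both directions. Hist1h1a, the linker histone with the most control footprints of the family, went from 27986 and 28136 to 16066 and 7365 and fell (log2 change -1.26 ± 0.48 SE, adjusted p = 0.00904), although not with TMM factors, without control replicate 1 (log2 change -1.26), without control replicate 2 (-1.26) or without harringtonine replicate 2 (-0.80). Hist1h2bl had 146 and 168 against 2.03 and 4.90 and fell under either scaling.

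Each gene family was set beside the length class that holds the family's median ORF length, because the share left differed with length. Single genes were not matched by length, so a family that spans several classes is matched only roughly. The family medians are descriptions with no test. Counts of ORFs that fell are to be read beside the 96.2% of all members, and 94.2% of all ORFs tested, that fell. Within the machinery of translation the families differed. Cytosolic ribosomal proteins (35 members of 78 listed) kept a median of 13.1% against 28.1% for their class. Their ORF footprints fell on 31 and rose on none (12 raised and 17 lowered with TMM). Rpl8 of the large subunit, with the most control footprints, had 26917 and 23832 against 4429.8 and 3996, whereas Rps4x of the small subunit had 125 and 123 against 0 and 0.7. Fau, which encodes a ribosomal protein fused to a ubiquitin-like part, had 177 and 148 against 249.6 and 187 (log2 change 0.43 ± 0.42 SE, adjusted p = 0.313). The family thus ran from 0.282% to 134% left.

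The 16 other mRNAs with a TOP tract kept a median of 14.9% against 11.7% for their class, and 14 of them fell (7 raised and 6 lowered with TMM). Rack1, a scaffold on the small subunit, had 41744 and 38491 against 6793 and 3951 (log2 change -2.90 ± 0.50 SE, adjusted p = 1.44e-08). Eif3e, a subunit of the initiation factor eIF3, had 1594 and 1790.3 against 1602 and 959 (log2 change -0.40 ± 0.44 SE, adjusted p = 0.364), and passed downwards without harringtonine replicate 1 (log2 change -0.82). Initiation factors (46 of 52) kept 13.2% against 11.7%, with 41 lowered and Eif2s3x raised (16 raised and 12 lowered with TMM). The scaffold Eif4g1 had 14664 and 13433 against 425 and 251, the lowest share of the family at 2.41%. Aminoacyl-tRNA synthetases (33 of 34) kept 7.93% against 11.7%, and 32 fell (5 raised and 20 lowered with TMM). Their median ORF of 1872 nt was near the upper edge of the class. The class of 2001 to 3000 nt kept 8.15%, close to the family's value. Kars, the lysyl-tRNA synthetase, kept 2.03%, and Dars, the aspartyl-tRNA synthetase listed with an ORF of only 261 nt, 76.5% (log2 change -0.39 ± 0.42 SE, adjusted p = 0.37).

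Chaperones kept few footprints. All 8 subunits of the CCT chaperonin, which folds tubulin and actin, fell (2 raised and 5 lowered with TMM), with a median of 6.22% against 11.7%. Cct5 had 20545 and 18249 against 759.9 and 445 (log2 change -5.01 ± 0.54 SE, adjusted p = 5.96e-19). Tcp1, listed with an ORF of 309 nt, had 2657 and 2019.6 against 818 and 819.6, the highest share of the complex. Heat shock proteins and chaperones of the endoplasmic reticulum (ER) (23 of 25) kept 8.42% against 11.7%, and 22 fell (3 raised and 12 lowered with TMM). Their median ORF was 1719 nt, and the class of 2001 to 3000 nt kept 8.15%. In this family Hyou1, an ER chaperone, kept 1.83% and the short Hspb1 85.5% (log2 change -0.23 ± 0.44 SE, adjusted p = 0.61).

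Short mitochondrial proteins also kept less than their class. Mitochondrial ribosomal proteins (69 of 77) kept 17.3% and respiratory chain subunits (70 of 78) 22.4%, both against 28.1%. Of the former 63 fell and of the latter 60 (34 and 40 raised, 20 and 17 lowered with TMM). The median ORF of the mitochondrial ribosomal proteins was 576 nt, near the upper edge of the 301 to 600 nt class. The class of 601 to 1000 nt kept 16.4%, close to that family's value. Mrpl15 had 2722 and 2686 against 366 and 185, and Atp5b, the catalytic subunit of the ATP synthase, 34748 and 31223 against 6607 and 4684. Genes encoded in the mitochondrial genome were not analysed here. Proteasome subunits (36 of 38) were near their class at 15.8% against 16.4%, with 35 lowered (15 raised and 9 lowered with TMM).

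Small proteins, selenoproteins and immediate early genes kept more. The list of thymosins and other small proteins (16 of 29) had a median of 55.9% against 47.5%, with 8 lowered, 8 not called and none raised (15 raised and 1 lowered with TMM). In the same-numbered pairs the medians were 71.4% and 33.9%, against 56.7% and 32.9% for the class. The pair of replicates numbered 2 was thus near the class. The 10 selenoprotein genes, whose mRNAs recode a UGA stop codon, kept 35.4% against 28.1%, with 7 lowered and Selenot raised (7 raised and 2 lowered with TMM). Immediate early genes (17 of 22), which encode short-lived regulators, kept 20.3% against 11.7%, and 13 fell (8 raised and 3 lowered with TMM). Their median ORF of 1023 nt was near the lower edge of the class, and the class of 601 to 1000 nt kept 16.4%. The median ORFs of initiation factors (1069.5 nt) and pluripotency factors (1059 nt) also lay near that edge. Jun, a transcription factor with a 5' UTR of 951 nt, kept 26.2%, and Ier3 had 341 and 253 against 310.5 and 171 (log2 change -0.30 ± 0.42 SE, adjusted p = 0.476), which passed downwards without harringtonine replicate 1 (log2 change -0.79).

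The pluripotency factors (24 of 26) kept 11.3% against 11.7%, and 22 fell (7 raised and 6 lowered with TMM). Pou5f1, which encodes Oct4, had 5404 and 5757 against 556 and 375 (log2 change -3.58 ± 0.49 SE, adjusted p = 1.13e-12). Sox2 went from 3222 and 3585 to 472 and 304, Nanog from 3992 and 3319 to 798 and 699 and the RNA binding protein Lin28a from 2424 and 2457 to 1001 and 789.6. All 4 fell against the spike-in, with 8.34%, 11.4%, 20.5% and 36.7% left, whereas with TMM factors Nanog and Lin28a turned positive and Sox2 was not called. Trim71, a ubiquitin ligase and let-7 target, had the lowest share of the list (1932 and 1788 against 108 and 46.9).

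In the remaining families most ORFs fell, as they did on 96.2% of all members. The counts were 43 of 44 splicing factors, 31 of 32 cyclins and cyclin-dependent kinases, 17 of 19 replicative helicase and clamp genes, 13 of 13 glycolytic enzymes, 12 of 13 tubulins and actins, 9 of 9 DNA methylation and Tet genes, 120 of 121 solute carriers, 142 of 145 zinc finger genes named Zfp, 79 of 82 motor and giant scaffold genes and 31 of 31 basement membrane and matrix genes. None of these families had a member raised, but with TMM factors each had between 1 and 23. Fn1, the fibronectin that anchors cells to matrix, had 50721 and 42116 against 2804 and 1649, and Lamc1, a laminin chain of the basement membrane, 12068 and 10861 against 233 and 133. They kept 4.80% and 1.60%.

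**Figure D3:**
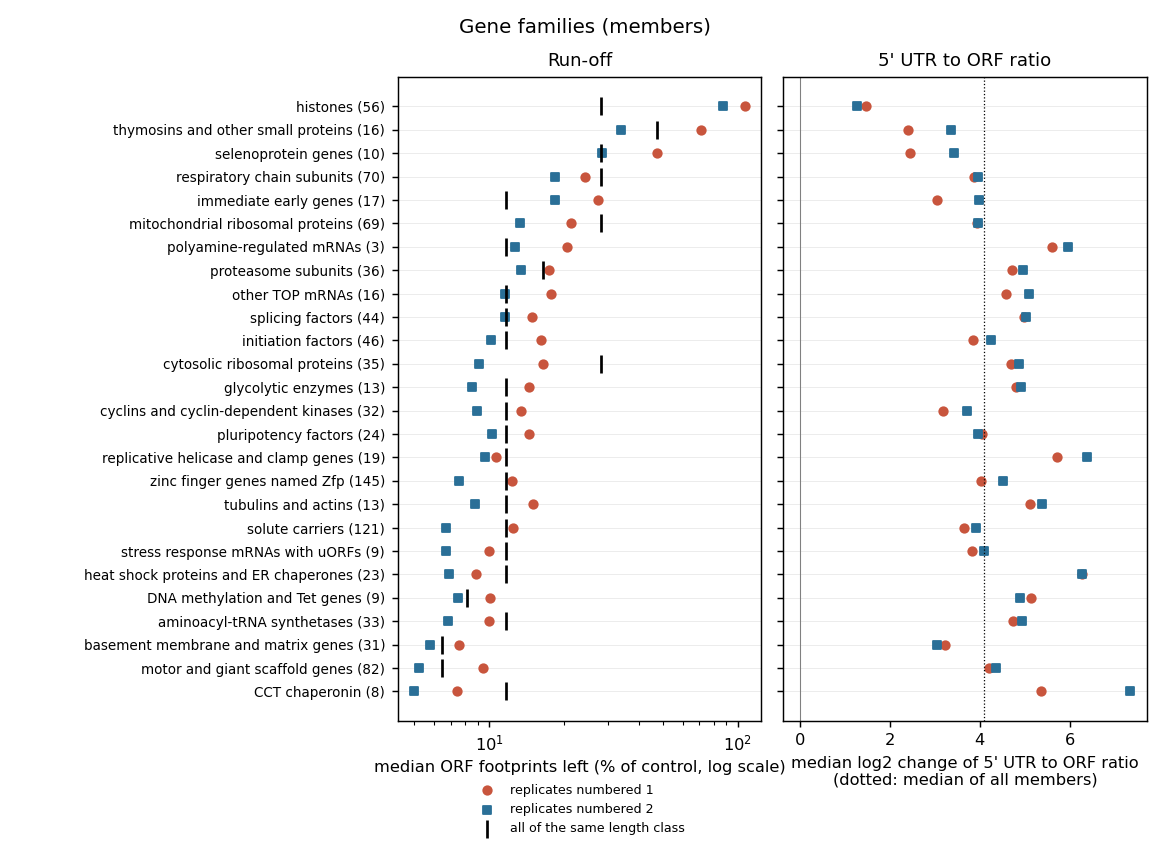
Medians per gene family (rows, with the number of members) for the pair of replicates numbered 1 (circles) and the pair numbered 2 (squares). The left panel gives ORF footprints left (% of control, log axis). Its bar marks the median of the length class that holds the family's median ORF length. The right panel gives the log2 change of the 5' UTR to ORF ratio with a dotted line at the median of all members. Histones lie highest on the left and lowest on the right (medians 105% and 1.32), and the chaperones low on the left and high on the right. The shares left depend on the spike-in scaling and were higher for each family with TMM factors, whereas the ratios do not.

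The 5' UTR could be tested on 4622 members. The others had under 10 reads on average over the 8 libraries or no value, since the value was blank for listed 5' UTRs of under 10 nt (166 members), and none of the 182 members with 10 to 19 nt had a read there in the 4 libraries. With positions given by the P-site, a ribosome on the start codon counts in the ORF. Harringtonine raised 5' UTR footprints on 1799 (38.9%) and lowered them on 237 (5.13%), with a median log2 change of 0.89. Over all 5463 5' UTRs tested, 36.3% rose and 5.8% fell. With TMM factors 4550 members rose and 6 fell, and with swapped factors 1746 rose and 454 fell. The raised count was 1091 without control replicate 1, 927 without control replicate 2 and 1143 without harringtonine replicate 1. The lowered count was 122 without control replicate 1, 139 without control replicate 2 and 129 without harringtonine replicate 2. Of those tested, 624 had under 10 reads in each control library and passed the filter through the drug libraries, so counts and medians over the tested members lean towards increases. With at least 10 reads in each control library asked for, a filter chosen after seeing the data, 1019 rose and 248 fell of 3539, with a median of 0.57.

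The calls of ORF and 5' UTR were also counted together. As the ORF fell on 96.2% of all members, the joint counts mostly follow the 5' UTR calls. Whether the 2 calls are linked was not tested. On 1717 members the ORF fell and the 5' UTR rose, on 235 both fell, and on 2523 the ORF fell while the 5' UTR passed in neither direction. Both rose on 5 members. The mean 5' UTR value was higher with harringtonine on 5810 of the 8532 members and lower on 1535. The gains summed to 309453 normalised footprints and the losses to 66472. Of the 5810 members with a gain, the 10 largest held 10.7% of the summed gain, the 100 largest 33.8%, and 283 members 50% of it.

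**Figure D4:**
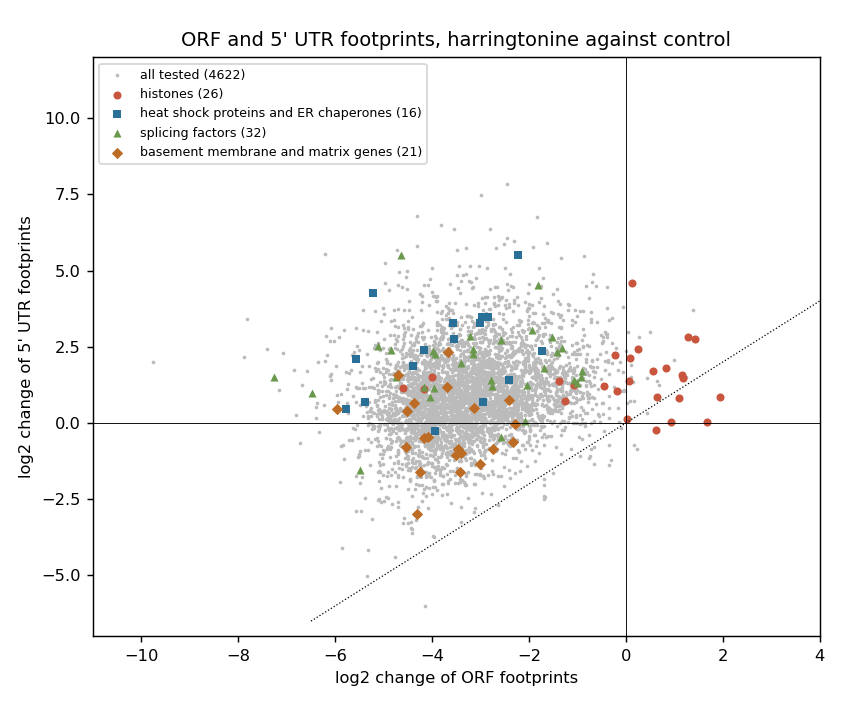
Log2 change of ORF footprints (x axis) and of 5' UTR footprints (y axis), harringtonine against control, for the 4622 members tested on both, with 4 gene families in colour. Most points lie left of 0 on the x axis and above the dotted line of equal change, histones lie furthest right, and chaperones lie higher than matrix genes (family medians 2.37 and -0.51). With TMM factors both axes shift up by about 2.90, so that positions relative to 0 depend on the scaling and positions relative to the dotted line do not.

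The genes with the largest gains in footprints were picked after their values were seen. The nucleolar protein Ncl had 3142 and 4021 control footprints on its 5' UTR and 11740.0 and 7809 with harringtonine (log2 change 1.45 ± 0.44 SE, adjusted p = 0.00377). On the 5' UTR of Rps20, a small subunit protein, 707 and 658 became 5507 and 6368 (log2 change 3.12 ± 0.47 SE, adjusted p = 1.82e-09). Its ORF went the opposite way, from 665 and 1013 to 9.13 and 14.7. Hsp90ab1 had 149.7 and 179 and 3646 and 2642 on the 5' UTR (log2 change 4.26 ± 0.49 SE, adjusted p = 5.92e-15), and the chaperonin subunit Cct2 160.3 and 150.5 and 2295 and 2603. For Cct4, whose coding start is shown above, the values were 800.5 and 881 and 4488 and 3037 (log2 change 2.16 ± 0.45 SE, adjusted p = 1.76e-05). Rack1 had 669.6 and 688 and 3946 and 2424 (log2 change 2.23 ± 0.45 SE, adjusted p = 9.93e-06). In all of these the lower harringtonine value was more than 2 times the higher control value except in Ncl, where it was still above both controls. The call for Ncl was lost without control replicate 1 (log2 change 1.28), control replicate 2 (1.64) or harringtonine replicate 1 (1.12).

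Some 5' UTRs went from next to no control reads to several. By fold the first were 6030458C11Rik, Xrcc1, Ddx1, Golt1b and Mum1, which passed the filter on low reads only through the drug libraries, so their order and tests carry no weight and only their values are given. Neither control library had a 5' UTR read on 6030458C11Rik or Xrcc1, a scaffold of DNA strand break repair. Against a floor of 3 reads in each control library their harringtonine values (27.4 and 26.6, and 22.3 and 19.6) were at least 8.63-fold and at least 6.70-fold higher. Ddx1, an RNA helicase, had 0 and 0.906 against 35.5 and 65.8, Golt1b, a Golgi transport protein, 0 and 1.81 against 60.9 and 75.6 and Mum1 0 and 4.53 against 163 and 141. The ORF of Ddx1 went from 4688 and 4668 to 515 and 284. Of the 4622, 10 lacked a control read, and with them at their lower bound the median stayed at 0.89.

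Decreases were fewer. The 5' UTR of Slit2, a guidance cue, had 27.1 and 41.7 in the control and 1.01 and 0 with harringtonine, the former being 1 read (adjusted p = 1.20e-08). Nt5dc2 had 385 and 347 against 14.2 and 8.40 (log2 change -5.04 ± 0.56 SE, adjusted p = 3.79e-16), and Tnks1bp1, which binds tankyrase, 372 and 300.05 against 20.3 and 11.9 (log2 change -4.40 ± 0.54 SE, adjusted p = 1.09e-13). The sorting nexin Snx19 had 127 and 113 against 6.09 and 7.00 and Bckdhb, a subunit of the branched-chain keto acid dehydrogenase, 93.1 and 94.3 against 5.07 and 5.60. In all 5 the ORF fell as well, and both harringtonine values were under both controls. In Bckdhb the in-frame upstream AUG shown above has no stop between it and the listed coding start. It opens 390 codons, against 322 from the listed start. Whether footprints counted on this 5' UTR lie within a longer coding sequence was not tested. An in-frame AUG of this kind was present in 5 of 210 lowered members with sequence (2.38%) and 22 of 1589 raised ones (1.4%). Of all tested members with sequence it was 74 of 4058 (1.82%), near both shares. Only AUGs within the listed 5' UTR were counted.

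Of the 10 largest losses in footprints, 5 are given, picked after their values were seen. The 5' UTR of Igfbp5, which binds insulin-like growth factors, went from 2524 and 2315 to 570.2 and 328 (log2 change -2.43 ± 0.45 SE, adjusted p = 1.72e-06), that of the integrin Itga3 from 1443 and 1721 to 409.9 and 293 and that of the collagen Col5a1 from 2009 and 1575 to 681 and 502. Bmp2, a growth factor, had 837 and 925 against 159 and 136 (log2 change -2.58 ± 0.46 SE, adjusted p = 6.40e-07). St3gal2, a sialyltransferase, had 796 and 828 against 69.0 and 56.7. Each of these fell, although Col5a1 not without control replicate 1 (log2 change -1.41), but with TMM factors Igfbp5, Itga3, Col5a1 and Bmp2 had a positive log2 change. The list of basement membrane and matrix genes had a median of -0.51 on 21 5' UTRs (3 raised, 5 lowered, 20 raised and none lowered with TMM), and solute carriers 0.08 on 69 (13 raised, 10 lowered, 68 raised and none lowered with TMM).

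Other families lay above the median of all members tested. The lean of the read filter towards increases applies to them too, and families were not recounted with at least 10 reads in each control library. Heat shock proteins and ER chaperones had a median 5' UTR change of 2.37 with 12 of 16 raised, cytosolic ribosomal proteins 2.18 with 8 of 15, glycolytic enzymes 2.27 with 5 of 7, replicative helicase and clamp genes 1.93 with 9 of 13 and splicing factors 1.76 with 26 of 32 (1 lowered). Small proteins had 12 of 14 raised and initiation factors 15 of 26. Of all members tested 38.9% were raised, but 64.1% at 5' UTRs of 50 to 99 nt and 54.0% at 100 to 199 nt. Families were not matched by 5' UTR length. Its median was 78 nt in cytosolic ribosomal proteins and 120.5 nt in initiation factors. With TMM factors every tested member of these families rose. In the splicing factor Hnrnpk 377 and 432 became 1345 and 969 (log2 change 1.51 ± 0.44 SE, adjusted p = 0.00279), and in Hnrnpu 585 and 630.0 became 2554 and 2234 (log2 change 1.98 ± 0.45 SE, adjusted p = 8.46e-05). For Pcna, the sliding clamp, the values were 134 and 119 and 448 and 362, and for Mcm5 of the helicase 11.8 and 9.06 and 34.5 and 43.4. Each of these 4 rose. Without control replicate 2 the threshold was missed for Hnrnpk, Pcna and Mcm5 (log2 change 1.62, 1.59 and 1.72), and without control replicate 1 for Hnrnpk (1.42).

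The 3 outcomes differed in layout. Raised 5' UTRs had a median listed length of 175 nt, lowered ones of 443 nt and the others of 277 nt. No upstream AUG was present in 60.7% of the raised and 10.0% of the lowered 5' UTRs with sequence, against 41.1% of all tested, and 3 or more in 7.55% and 56.7%, against 21.7%. The median log2 change was 1.35 at 25 to 49 nt, 1.83 at 50 to 99 nt, 1.37 at 100 to 199 nt, 0.91 at 200 to 299 nt, 0.47 at 300 to 499 nt, -0.03 at 500 to 999 nt and -0.41 at 1000 nt or more. By number of upstream AUGs it was 1.46 with none, 0.90 with 1, 0.47 with 2 and 0.02 with 3 or more. Members with 3 or more were raised 120 times and lowered 119 times of 879, those with none 965 and 21 times of 1668. A common scaling factor would move every class by the same amount. With at least 10 reads in each control library, raised 5' UTRs had a median length of 199 nt with 55.9% lacking an upstream AUG, and lowered ones of 433 nt with 10.5%. The median change was then 1.22 at 50 to 99 nt, 1.01 at 100 to 199 nt, -0.10 at 500 to 999 nt and -0.43 at 1000 nt or more, and 1.09 with no upstream AUG against -0.10 with 3 or more. At 25 to 49 nt only 52 of 696 members could be tested, and 23 with that filter.

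Length and upstream AUGs go together, so they were also set against each other. Within each length class 5' UTRs without an upstream AUG had the higher median. The values were 1.95 against 1.08 under 100 nt, 1.66 against 0.92 at 100 to 199 nt, 1.19 against 0.69 at 200 to 299 nt, 0.86 against 0.37 at 300 to 499 nt and 0.25 against -0.19 at 500 nt or more. The last class holds only 32 tested 5' UTRs without an upstream AUG. With at least 10 reads in each control library the order was the same in each class, from 1.32 against 0.73 under 100 nt to 0.24 against -0.24 at 500 nt or more.

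**Figure D5:**
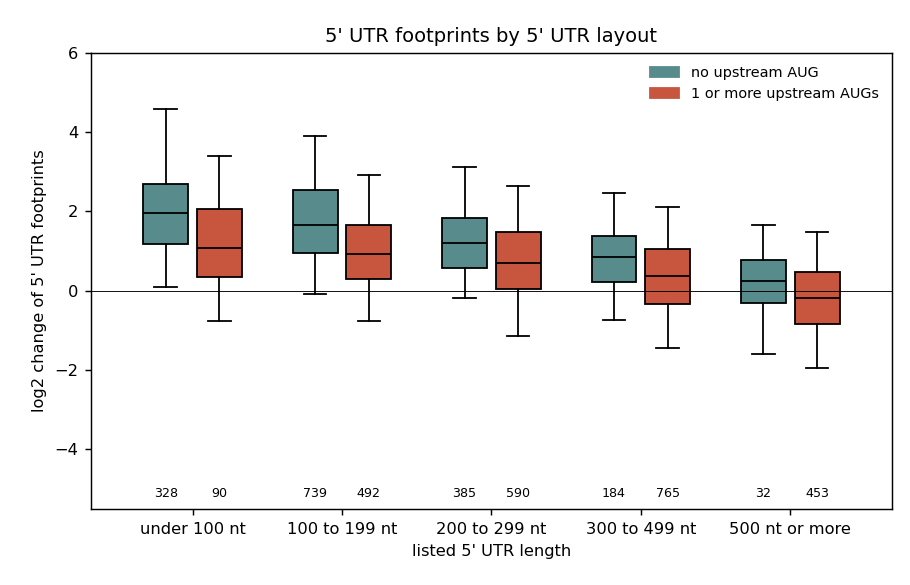
Log2 change of 5' UTR footprints (y axis) by listed 5' UTR length (x axis), for 5' UTRs without (green) and with (red) an upstream AUG. Boxes give the median and quartiles, whiskers the 5th and 95th percentiles over transcripts, and the number tested stands under each box. Medians fall from 1.95 and 1.08 at under 100 nt to 0.25 and -0.19 at 500 nt or more, and with TMM factors all of them shift up by about 2.90.

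Density shows the same by library. On 5' UTRs of 100 to 199 nt there were 21.7 and 20.8 normalised footprints per 100 nt and transcript in the control libraries and 63.4 and 46.7 with harringtonine. On those of 1000 nt or more the values were 18.4 and 17.4 against 13.98 and 9.22. Both harringtonine libraries lay above the controls in the short class and below them in the long class. By the context of the coding start, the 5' UTR to ORF ratio had a median log2 change of 4.16 where both a purine at the third base before the AUG and a following G were present, 4.13 with the purine only, 3.89 with the G only and 3.76 with neither.

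Several mRNAs with known regulatory uORFs were among the members. Atf4, the transcription factor of the integrated stress response, is translated under stress through its uORFs. Its 5' UTR held 469 and 1653 footprints in the control and 3010.3 and 1825 with harringtonine (log2 change 1.19 ± 0.43 SE, adjusted p = 0.0188). The control libraries were far apart, and both harringtonine values exceeded both. Without control replicate 1 (log2 change 0.55) or harringtonine replicate 1 (0.78) the threshold was missed. Its ORF fell from 660.2 and 563 to 95.4 and 37.8 (log2 change -3.21 ± 0.47 SE, adjusted p = 1.52e-11), although not with TMM factors (-0.37). Of the stress response list with uORFs (9 of 14 members), 5 of 8 tested 5' UTRs rose and 1 fell (8 raised with TMM). Over all members tested 38.9% rose and 5.13% fell. Odc1 is known for control by polyamines, and its 5' UTR went from 16.5 and 7.25 to 39.6 and 31.5 (log2 change 1.60 ± 0.60 SE, adjusted p = 0.0219). Azin1, an inhibitor of antizyme, had 578 and 649.9 against 556 and 337 (log2 change -0.46 ± 0.43 SE, adjusted p = 0.402). The list of polyamine-regulated mRNAs had only 3 of 10 genes among the members.

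Regulators of stem cells gave mixed results. The 5' UTR of Sox2 (411 nt) had 1415 and 1412 control footprints and 3028 and 2299 with harringtonine (log2 change 0.91 ± 0.43 SE, adjusted p = 0.0747), and that of Nanog (90 nt) 74.3 and 59.8 and 129 and 116 (log2 change 0.87 ± 0.47 SE, adjusted p = 0.125). In both genes the harringtonine values were the higher ones, without passing the test. Myc had 245 and 288 against 615 and 469 (log2 change 1.02 ± 0.44 SE, adjusted p = 0.0494) and Mycn 486 and 576 against 1983 and 1226 (log2 change 1.60 ± 0.44 SE, adjusted p = 0.00153), and both rose. The call for Myc was lost without control replicate 1 (log2 change 0.91), control replicate 2 (1.14) or harringtonine replicate 1 (0.81) and in the fit with a replicate block (1.01), and that for Mycn without control replicate 1 (1.48). Trim71, with 1252 nt and 7 upstream AUGs, had 1146 and 1147 against 1180.0 and 818 (log2 change -0.20 ± 0.43 SE, adjusted p = 0.735), and the groups overlapped. The 5' UTR of Fosl2, a partner of Jun, fell from 126 and 119.7 to 53.8 and 37.8 (log2 change -1.43 ± 0.47 SE, adjusted p = 0.00868), although not with TMM factors, nor without control replicate 1 (log2 change -1.39), control replicate 2 (-1.47) or harringtonine replicate 2 (-1.19).

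The ratio of 5' UTR to ORF footprints within a library is free of the scaling. It rose on 4518 of 4622 members (97.7%) and fell on 3, with a median log2 change of 4.10 and 4.01 and 4.19 in the same-numbered pairs. Over all 5244 transcripts tested, 96.6% rose and 0.133% fell. The 3 that fell were Hist1h2ae (log2 change -1.80 ± 0.36 SE, adjusted p = 1.04e-04), Hist1h2ab (log2 change -1.38 ± 0.41 SE, adjusted p = 0.00344) and Ubald1 (log2 change -1.01 ± 0.37 SE, adjusted p = 0.0145), and there were 6 without harringtonine replicate 2. Ubald1 missed the threshold without control replicate 1 (-0.97) or control replicate 2 (-1.06), and Hist1h2ab without control replicate 2 (-0.69). Among the genes described above it rose on Hsp90ab1 (log2 change 9.49 ± 0.49 SE, adjusted p = 1.31e-11) and Rps20 (log2 change 9.20 ± 0.45 SE, adjusted p = 7.78e-12). Between families the median ran from 1.32 in histones (12 of 26 raised) and 2.86 in small proteins to 6.03 in helicase and clamp genes and 6.29 in heat shock proteins and ER chaperones (16 of 16 raised). By 5' UTR length it was 2.94 at 25 to 49 nt (52 tested), 4.54 at 50 to 99 nt, 4.46 at 100 to 199 nt, 3.41 at 500 to 999 nt and 3.13 at 1000 nt or more.

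The change in this ratio was compared with that of the other inhibitors by a contrast between drugs, in which the control cancels out. Doses and times were 10 min for harringtonine and DMDA-PatA and 20 min for puromycin, so the drugs are set side by side as used. Against puromycin the ratio was higher with harringtonine on 2656 of 4622 members and lower on 59 (median log2 difference 1.45). Over all transcripts tested, 55% were higher and 1.3% lower. Against DMDA-PatA, which targets the helicase eIF4A, 604 were higher and 1167 lower (median -0.26), and over all tested 12.3% were higher and 23.9% lower. The 604 became 401 without harringtonine replicate 2.

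This difference from DMDA-PatA changed sign with ORF length. Its median was -1.97 on ORFs of up to 300 nt, -1.34 at 301 to 600 nt, -0.68 at 601 to 1000 nt, -0.29 at 1001 to 2000 nt, 0.11 at 2001 to 3000 nt, 0.48 at 3001 to 4000 nt and 1.07 over 12000 nt. On ORFs of up to 300 nt 76 of 117 tested transcripts had a lower ratio with harringtonine and 10 a higher one, whereas at 3001 to 4000 nt 27 of 337 were lower and 84 higher. Against puromycin the median stayed between 1.52 and 1.68 up to 2000 nt and was -0.67 over 12000 nt, where 14 transcripts were tested.

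The 3' UTR, downstream of the stop codon, served as a comparison region. Only 625 members had enough reads. Their 3' UTR footprints fell on 153 and rose on 55 (median log2 change -0.13). Over all 676 tested, 27.4% fell and 8.14% rose, and with TMM factors 501 members rose and 68 fell. By ORF length the median ran from -1.61 at up to 300 nt (31 of 58 lowered) to 1.04 at 3001 to 4000 nt, and a common scaling factor would move both alike. The raised count was 15 without control replicate 2 and 15 without harringtonine replicate 1. Near the ORF cutoff, Gm10250 (mean control value 100.05, 6.51% left) and Myl7 (100.05, 40.3% left) were just inside, and Fam20b (99.9, 15.1% left) and Tmx2 (99.8, 80.5% left) just outside.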

How the data were processed

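Ribosome profiling and transcriptome libraries of the same cells were made from what the study calls biological replicates, and 8 of the 10 libraries, those of ribosome profiling, were used here. The authors aligned SOLiD reads to mm10 in colour space, left out reads with several matches, kept 1 transcript per gene, assigned each read to the position of its P-site and scaled each library by a size factor from spike-in RNA added per amount of total RNA. The submitters' processing notes name Picard 1.38 and mm10. The deposited values are a coverage signal per region (ORF, 5' UTR, 3' UTR), whole reads divided by that size factor. Columns of inhibition and p-values made by the authors were not used.

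Whole reads were recovered from the smallest step of each column (100% of values whole within 0.05 reads, at 1.179, 0.906, 1.015 and 0.700 normalised footprints per read in control and harringtonine replicates 1 and 2). These reads, with the authors' scaling as offset, were tested with edgeR 4.0.16 (quasi-likelihood, all 8 libraries in 1 fit, 4 residual degrees of freedom, Benjamini-Hochberg adjustment over all features with at least 10 reads on average) in R 4.3.3, after the steps had been tested on simulated data. The planned test was written for reads, and the deposited unit is a scaled signal. The 5' UTR to ORF ratio was tested as the interaction of region and condition in a fit of both regions. A value after ± is the SE of the log2 change. Percent left is the harringtonine mean over the control mean. An upstream AUG and its frame were read from GENCODE M21, whose transcript gave a start context for 8131 members and a 5' UTR sequence for 7502.

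Members and gene lists were chosen with earlier results of these data known. Genes were named by a rule: a fixed list of 30, the 5 largest changes in each direction of ORF, 5' UTR and ratio, and in each of 27 families (26 with members) the genes with the most control footprints and the highest and lowest share left. All other named genes were chosen after their values were seen. Alternatives were TMM factors, DESeq2 1.42.0, no filter, a cutoff of 500, the factors of the harringtonine and DMDA-PatA libraries swapped (as 1 of the study's published lists has them, against the deposited files), a fit of the control and harringtonine libraries only, a replicate block and leaving out each library. Library numbers of the replicates were treated as names: deviations from the group means of same-numbered control and harringtonine libraries correlated at only 0.0905. Intervals of counts are not given, and SEs over 2 libraries per condition limit the precision.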

Additional observations from a re-analysis of the deposited data

How the results depend on the processing

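Scaling mattered most. With TMM factors ORF footprints were lowered on 38.4% and raised on 26.2% of members, 5' UTR footprints raised on 98.4% and lowered on 0.13%, 3' UTR footprints raised on 80.2% and lowered on 10.9%, and the median share of ORF footprints left was 85.2%. The log2 change turned positive for the ORFs of Rpl8 (0.38), Tpt1 (2.38), Tcp1 (1.48), Hist1h1a (1.58), Tmsb4x (2.87), Dppa5a (2.19), Nanog (0.68), Lin28a (1.49), Azin1 (1.27), Ahnak (2.24), Dst (1.97), Macf1 (1.21), Plec (1.20), Kmt2d (1.14), Mdn1 (0.28), Eif3e (2.48), Hspb1 (2.70), Atp5b (0.38), Dars (2.56), Jun (0.94) and Ier3 (2.58) and for the 5' UTRs of Eif4g1 (1.98), Trim71 (2.72), Fosl2 (1.49), Azin1 (2.43), Igfbp5 (0.45), Itga3 (0.75), Col5a1 (1.34) and Bmp2 (0.37). These factors centre the ORF reads, so the shift follows from their construction. With the factors of the harringtonine and DMDA-PatA libraries swapped, 5' UTRs were lowered on 9.82% of members. Without the filter, which adds features with few reads, 5' UTRs were lowered on 3.09%, 3' UTRs lowered on 2.26% and raised on 0.585%, and the ratio was above puromycin on 37.7% and above DMDA-PatA on 8.12%. DESeq2 raised 5.6% of 3' UTRs, and the cutoff of 500 lowered 14.8% of them; the cause was not tested. With at least 10 control reads in each 5' UTR, a filter chosen after seeing the data, the ratio fell on 0.113%.

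Leaving out 1 library at a time gave 0.0703% to 0.527% of ORFs raised, 20.1% to 40.3% of 5' UTRs raised and 2.64% to 5.76% lowered, 2.55% to 12.4% of 3' UTRs raised, 0.0433% to 0.130% of ratios lowered and 8.68% to 13.3% of ratios above DMDA-PatA. In the paired fit with a replicate block, ORFs were lowered on 95.6% and raised on 0.199%, 5' UTRs raised on 35.3% and lowered on 4.48%, and the ratio raised on 97.7%. The numbers did not pair the samples (correlations of deviations -0.0186 to 0.104), and of the named genes only the 5' UTR of Myc lost its call under the block. Of 112 comparisons of counts and medians under an alternative, 82 stayed within the limit for the same value (counts within 1.5 times). Low 5' UTR and 3' UTR reads limit what could be tested, and 2 libraries per condition limit every single gene.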

Other observations

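Transcripts below the cutoff, with a mean of 20 to 100 control ORF footprints, showed the same regions moving. Of these 3032 transcripts the median kept 16.3% of the ORF footprints (19.1% and 12.9% in the same-numbered pairs), and of 2568 tested 2301 were lowered and 9 raised by the edgeR test. Their 5' UTR footprints were raised on 131 and lowered on 68 of 680 tested, with a median log2 change of 0.30. The ratio of 5' UTR to ORF was raised on 545 and lowered on 4 of 614, with a median log2 change of 3.02.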
